A study of Rattus norvegicus with 48 samples.

Results

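The genes for the proteins of the cytosolic ribosome were followed in 4 areas of the brain of male Sprague-Dawley rats. Members were the single-symbol probe sets whose annotated symbol names a large subunit protein (Rpl, Rplp) or a small subunit protein (Rps, Rpsa), without the ribosomal S6 kinases and the paralogs whose symbol ends in l and a digit. One probe set was kept per symbol, the one with the highest mean over the arrays. The rule found 70 genes of the 14324 genes with a single-symbol probe set: 42 of the large subunit, 27 of the small subunit, and Rps19bp1, a binding protein of Rps19 that the pattern takes in and that is not itself a subunit. Before one probe set was kept per symbol, the members had 250 probe sets. Of the 70 genes, 53 had more than 1 probe set, with up to 21 for Rpl21, and 3 (Rpl35a, Rpl38 and Rps10) held the same values as another probe set in every array.

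The ribosome translates messenger RNA with a small subunit that decodes the message and a large subunit that joins amino acids. Most of its proteins are needed in equal numbers. The messages of its proteins share a start that begins with a run of pyrimidines, through which the mTOR pathway controls their translation. In neurons, ribosomes are also found in dendrites, where local translation takes part in lasting changes of synapses.

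The rats were the F3 generation of dams that were given intraperitoneal vinclozolin, a fungicide with anti-androgenic action, at 100 mg/kg/day, or the vehicle DMSO, from embryonic day 8 to 14; neither the F3 rats nor their F2 parents were dosed, per the labels. A rat of the vinclozolin lineage (Vin) and one of the control lineage (Con) lived together as a dyad. Dyads were either stressed in adolescence (St), by 6 hours of restraint a day for 21 days from postnatal day 23 to 43, or not stressed (NSt), and all were killed at 120 days. Punches of 2 mm were taken from the basolateral amygdala (BLA), the motor cortex (MC) and the hippocampal fields CA1 and CA3. Each array measured RNA pooled from 4 rats, and the same 12 pools supplied all 4 areas, so that 4 groups (the unstressed NSt-Con and NSt-Vin, the stressed St-Con and St-Vin) had 3 arrays in each area. In motor cortex array 2 of NSt-Vin, and in CA1 array 3 of St-Con, equal the mean of the other arrays of their group and were left out, which leaves 46 of 48 arrays and n = 2 in those groups.

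Values are log2 signals as deposited, and a difference of log2 values between groups is written as a log2 difference. The arrays' medians over all probe sets were alike within an area, from 6.76 to 6.81 in motor cortex, 7.08 to 7.13 in BLA, 7.11 to 7.17 in CA1 and 7.34 to 7.39 in CA3, and differed between areas. RNA of BLA and motor cortex was prepared on one day and RNA of CA1 and CA3 on another, and CA1 and CA3 were scanned on different days, so that in every pair but BLA with motor cortex the area cannot be told apart from the day of RNA preparation or of scanning. The punches differed in their cell type markers. The mean log2 signal of 14 markers of striatal medium spiny neurons was 8.78 in BLA, with a range of 7.69 to 9.88 over its arrays, against 7.15 to 7.34 in motor cortex. Myelin markers averaged 10.16 in CA1 and 9.29 in motor cortex. The 5 markers of CA1 pyramidal cells averaged 8.38 in CA1 and 8.93 in CA3, the reverse of the labels, and the 10 markers of CA3 and CA2 pyramidal cells averaged 7.94 in CA1 and 8.28 in CA3, in the order of the labels. The arrays' median over all probe sets was itself higher in CA3, at a mean of 7.37 against 7.13 in CA1. Markers of the choroid plexus were over 0.6 above their area's mean in 5 arrays, 4 of them NSt-Con and 1 the third St-Vin array of BLA. The part of these marker lists in the area differences below was not tested. In bulk tissue, fewer cells of a type and less RNA per cell cannot be told apart.

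The starts of the members' genes are shown because they carry the feature for which the family is known. RefSeq promoter windows of 300 bases (assembly GRCr8) were found for 60 of the 70 genes. The annotated start of the window was the first base of the RefSeq gene in 24 of these 60. A run of at least 6 pyrimidines that reached within 5 bases of the annotated start was found in 42 of the 60 windows (70.0%) and in 19.8% of all 33469 windows. The letters CCGGAA, the core bound by ETS factors, were found on either strand in 32 windows (53.3%), against 15.0% of all windows. The letters AAGATGG, the core bound by YY1, were found in 8 (13.3%), against 7.0%. These matches are descriptions of the annotated windows, not sites. The 8 windows below are those of the members that set BLA apart from motor cortex most on the deposited scale, in both directions. Each gives 40 bases before and 20 after the annotated start, with the pyrimidine run in capitals where there is one.
Rpl3: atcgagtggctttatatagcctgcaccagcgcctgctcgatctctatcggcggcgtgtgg
Rps24: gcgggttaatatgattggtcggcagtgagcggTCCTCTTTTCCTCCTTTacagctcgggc
Rps12: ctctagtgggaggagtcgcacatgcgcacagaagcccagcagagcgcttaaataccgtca
Rpl31: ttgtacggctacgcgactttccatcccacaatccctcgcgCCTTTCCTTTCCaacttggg
Rps6: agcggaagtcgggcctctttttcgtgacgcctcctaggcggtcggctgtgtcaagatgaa
Rpl5: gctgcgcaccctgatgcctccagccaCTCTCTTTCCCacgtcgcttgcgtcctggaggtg
Rps3a: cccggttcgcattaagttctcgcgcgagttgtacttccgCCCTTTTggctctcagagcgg
Rpl24: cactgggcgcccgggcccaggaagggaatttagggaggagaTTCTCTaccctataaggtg
They lie, in the same order, at chr7:113507971-113508030 (minus strand), chr16:96477-96536 (plus), chr1:23500035-23500094 (plus), chr9:49143071-49143130 (plus), chr5:106420521-106420580 (minus), chr14:1995206-1995265 (minus), chr2:173827023-173827082 (minus) and chr11:58128386-58128445 (minus). Windows with and without the run stand on both sides: Rpl3 and Rps12 have none and Rps24 has one of 17 bases, and among the members with lower values Rps6 has none and Rpl5 has one of 11 bases.

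The first comparison asked how the family's level differed between areas. As deposited, the median of the 70 members averaged 10.06 ± 0.07 (SD, n = 11 arrays) in motor cortex, 10.30 ± 0.05 (n = 12) in BLA, 10.50 ± 0.06 (n = 11) in CA1 and 10.72 ± 0.07 (n = 12) in CA3. Over single arrays the lowest, median and highest were 9.89, 10.09 and 10.15 in motor cortex and 10.20, 10.30 and 10.38 in BLA. In CA1 they were 10.36, 10.50 and 10.59, and in CA3 10.57, 10.75 and 10.83. Motor cortex overlapped no other area, while BLA with CA1 and CA1 with CA3 overlapped at the ends of their ranges. As deposited, an order that other scalings change, 56 of the members ran motor cortex, BLA, CA1, CA3 from lowest to highest mean, and 69 were highest in CA3. The same order was seen in the arrays' medians over all probe sets. Of all probe sets, 95.5% were higher in CA3 than in motor cortex, 86.1% than in BLA and 83.8% than in CA1. The share of all probe sets with the full order was not counted.

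**Figure D1:**
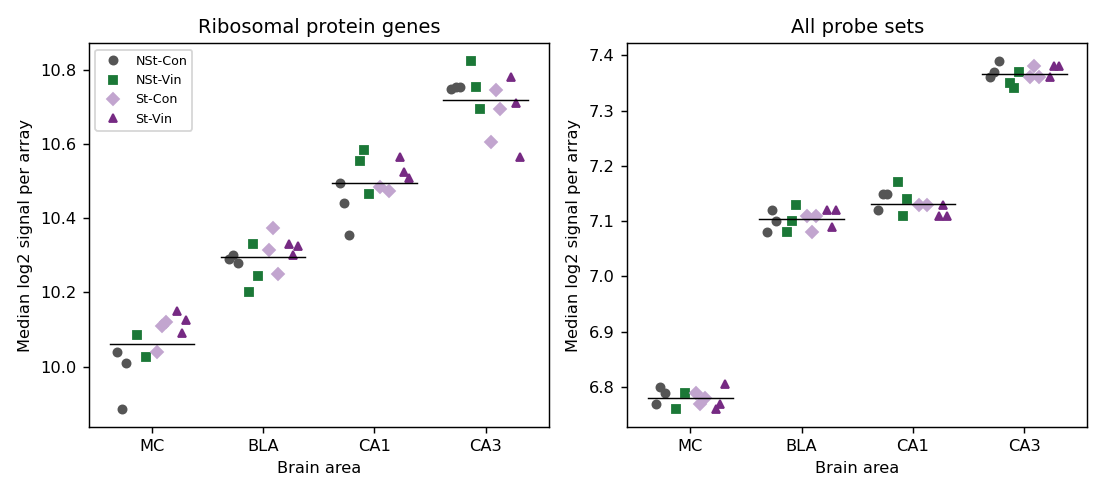
Median log2 signal per array (vertical axis) of the 70 ribosomal protein genes (left) and of all 27342 probe sets (right) by brain area, with one point per array, colours for the 4 groups and a line at the area mean. Both panels rise from motor cortex to CA3, with members' means of 10.06 and 10.72, and quantile normalization or median centring turns the sign of the members' difference in every pair except CA1 against motor cortex.

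The fit across all probe sets gave each area pair its own test (limma, area with the pool as a block, Benjamini-Hochberg adjusted p under 0.05, two-sided). For BLA against motor cortex, 53 of 70 members passed, 49 higher and 4 lower in BLA, where 79.5% of all probe sets passed. For CA1 against motor cortex all 70 members were higher, where 88.7% of all probe sets passed, and for CA3 against motor cortex all 70, where 95.1% passed. For CA1 against BLA, 59 members were higher and 1 lower (76.5% of all passed), for CA3 against BLA 70 were higher (87.4%), and for CA3 against CA1 65 were higher (79.6%). The members' share (75.7% for BLA against motor cortex) was under the background in that pair and above it in the other 5, and these directions hold for the values as deposited only.

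As deposited, the median of all probe sets shifted with that of the members. The members' median log2 difference was 0.17 for BLA minus motor cortex, where that of all probe sets was 0.18, and 0.18 for CA3 minus CA1, where it was 0.21. It was 0.39 against 0.30 for CA1 minus motor cortex, 0.56 against 0.50 for CA3 minus motor cortex, 0.21 against 0.13 for CA1 minus BLA and 0.40 against 0.32 for CA3 minus BLA. Relative to the median of all probe sets, the members therefore differed by -0.03 to 0.09 in the 6 pairs as deposited. With quantile normalization this ran from -0.05 to 0.16, with 0.16, 0.15 and 0.12 for BLA, CA1 and CA3 minus motor cortex.

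The direction of the family depended on how the areas were put on one scale. With quantile normalization the members' medians were 0.16 for BLA minus motor cortex, 0.14 for CA1 minus motor cortex and 0.12 for CA3 minus motor cortex, and -0.01, -0.02 and -0.04 for CA1 minus BLA, CA3 minus BLA and CA3 minus CA1. The members called were then 43 higher and 7 lower, 51 and 1, 46 and 2, 21 and 21, 18 and 27, and 4 and 20 in that order, where 74.1%, 64.3%, 71.3%, 69.5%, 71.6% and 58.2% of all probe sets passed. With each array centred on its own median, the members' medians were -0.16, 0.04, -0.03, 0.18, 0.14 and -0.06 in the same order, with 9 higher and 45 lower, 22 and 8, 18 and 22, 56 and 2, 46 and 6, and 7 and 30 called, where 79.5%, 65.6%, 75.5%, 75%, 76.1% and 61.9% of all probe sets passed. The members' share was under the background in every pair except CA1 against motor cortex with quantile normalization (74.3%) and CA1 against BLA with centring (82.9%). CA1 against motor cortex alone kept a positive median on all 3 scales. Large and small subunit genes moved alike as deposited: the large and small medians were 0.16 and 0.20 for BLA minus motor cortex, 0.39 and 0.40 for CA1 minus motor cortex and 0.18 and 0.18 for CA3 minus CA1, and they lay furthest apart for CA1 minus BLA, at 0.24 and 0.15.

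The other genes of translation were read beside the members and all probe sets. As deposited, 88.7% of all probe sets passed for CA1 against motor cortex (median 0.30). For BLA against motor cortex 79.5% passed, 17057 higher and 4671 lower in BLA (median 0.18). As deposited, of 39 initiation factors, which load the small subunit onto messages, 35 were higher and 0 lower in CA1 than in motor cortex (median 0.24), and 11 were higher and 13 lower in BLA than in motor cortex (median -0.04). Of 49 ribosome assembly factors and RNA polymerase I genes, 44 were higher in CA1 than in motor cortex (median 0.30) and 28 higher and 8 lower in BLA (median 0.14). Of 67 mitochondrial ribosomal protein genes, which serve the separate ribosome of mitochondria, 25 were higher and 19 lower in BLA than in motor cortex (median 0.02), and of 79 oxidative phosphorylation genes 16 were higher and 38 lower (median -0.08). Eef1a1, the elongation factor that brings aminoacyl-tRNA, was higher in BLA than in motor cortex by 0.34 ± 0.018 (SE; limma adjusted p = 9.88e-19). Rack1, a scaffold on the small subunit, was higher by 0.08 ± 0.031 (limma adjusted p = 0.0171). Fau, whose product carries the small subunit protein eS30, was higher by 0.10 ± 0.031 (limma adjusted p = 0.00528). Both differences were under the median of all probe sets (0.18). Eef2, the factor that moves the ribosome along the message, was lower in BLA, with a difference of -0.12 ± 0.032 (limma adjusted p = 0.000755). The values of these single genes and of the lists are as deposited and are not given on the other scales. With arrays centred on their median, the members' median for BLA minus motor cortex was -0.16.

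The composition of the family was then compared within arrays. Each array was centred on the median of its 70 members, so that a member's relative level is its log2 signal minus that median and a shift common to the family drops out; this scale was chosen after the values were seen. In BLA against motor cortex, 19 members were relatively higher and 34 relatively lower, where 72.2% of all probe sets passed on this scale. The counts of relatively higher and lower members were 7 and 21 for CA1 against motor cortex (66.8% of all passed), 10 and 40 for CA3 against motor cortex (75.5%), 20 and 18 for CA1 against BLA (66.2%), 21 and 25 for CA3 against BLA (72%), and 10 and 27 for CA3 against CA1 (55.9%). The members' shares were at or under these backgrounds in every pair except BLA against motor cortex, where 53 of 70 (75.7%) passed. The sizes were small: apart from Rps19bp1, no member's relative difference exceeded 0.41 in either direction in any pair. The split also depended on the choice of probe set. With the mean of all probe sets of a symbol, CA3 against BLA had 3 relatively higher and 37 relatively lower members. Of its 21 higher and 25 lower members, 2 and 22 were then called again in the same direction and 2 in the opposite one. For CA3 against CA1, 1 of the 10 higher and 10 of the 27 lower members were kept in all the alternatives.

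**Figure D2:**
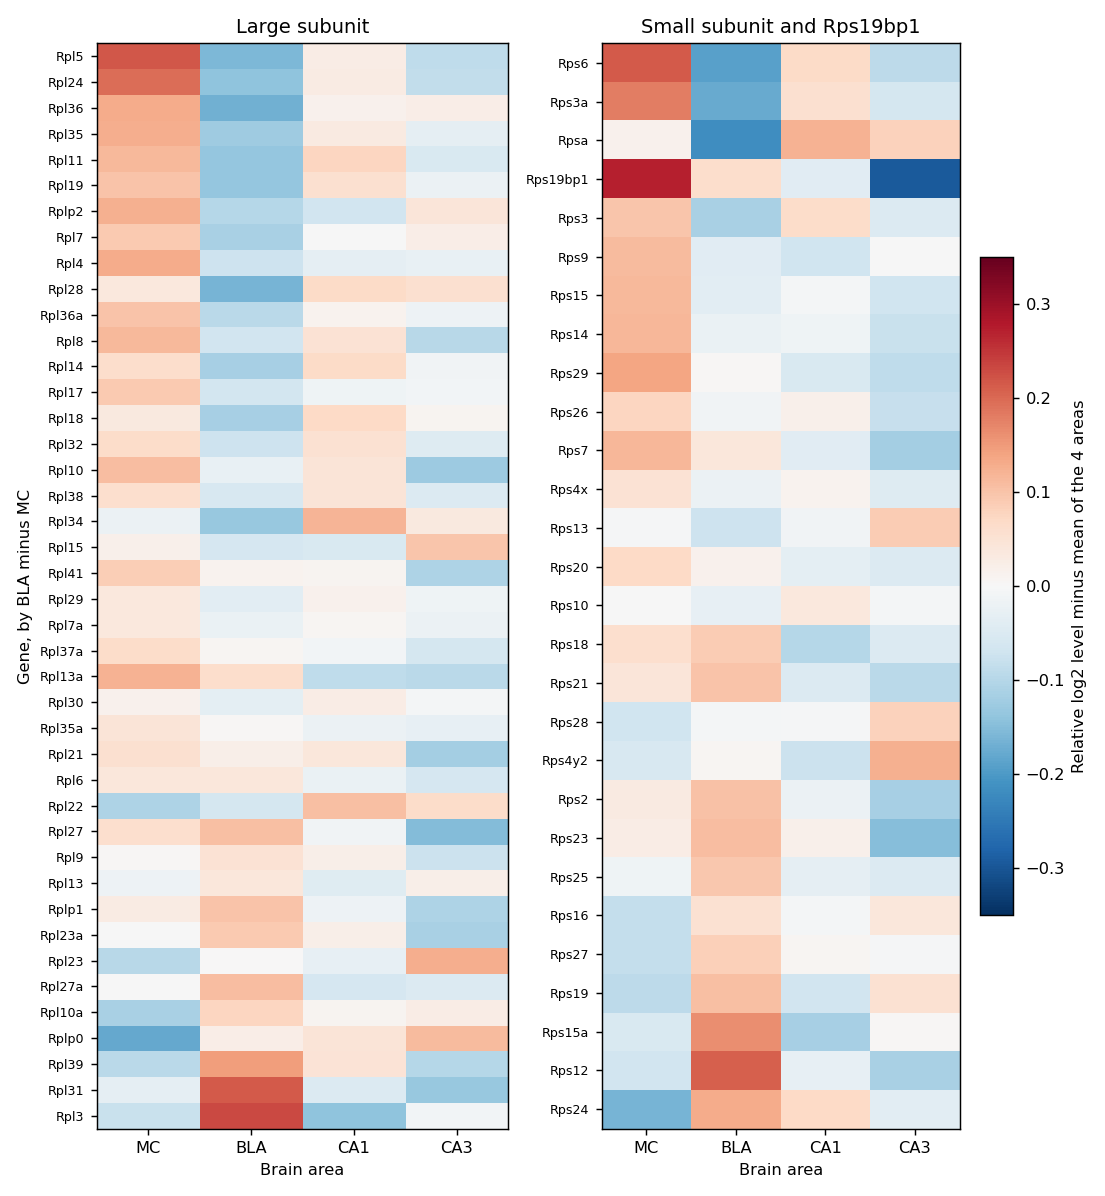
Relative level of each member (colour, log2 signal minus the array's members' median, averaged per area and minus the mean of the 4 areas) in motor cortex, BLA, CA1 and CA3, with genes ordered by BLA minus motor cortex. Rpl5, Rpl24, Rps6 and Rps3a are red in motor cortex and blue in BLA, while Rpl31, Rpl3, Rps12 and Rps24 are red in BLA.

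The members that differed most between BLA and motor cortex are given first for the lower and then for the higher side. Rps6, the small subunit protein phosphorylated by the S6 kinases downstream of mTOR, had a relative level of 0.45, 0.56 and 0.66 (lowest, median, highest of 12 arrays) in BLA and 0.83, 0.97 and 1.09 (11 arrays) in motor cortex. The areas did not overlap, and Rps6 was lower in BLA by a relative difference of -0.41 ± 0.039 (SE; limma adjusted p = 1.01e-11). Its means in CA1 and CA3 were 0.82 ± 0.11 and 0.66 ± 0.09 (SD), both between those of motor cortex and BLA.
Rps3a, a small subunit protein at the exit of the message channel, had relative levels of 0.00, 0.15 and 0.32 in BLA and 0.33, 0.55 and 0.63 in motor cortex. The ranges met without overlapping, with a relative difference of -0.36 ± 0.037 (limma adjusted p = 5.89e-11).
Rpl5, which with Rpl11 and 5S ribosomal RNA forms a particle that joins the large subunit and also binds Mdm2, differed by -0.38 ± 0.035 (limma adjusted p = 5.43e-12). Rpl11 itself differed by -0.25 ± 0.034 (limma adjusted p = 4.53e-08). Both partners were thus relatively lower in BLA. For Rpl5 the other probe sets did not follow the chosen one as deposited: of its 3 probe sets only the chosen one was below 0, in a range of -0.15 to 0.17. Rpl24, a protein that joins the large subunit late in its assembly, differed by -0.33 ± 0.041 relatively, and its 2 probe sets lay on both sides of 0 as deposited, at -0.10 and 0.09. With the mean of all probe sets of a symbol, the relative differences were -0.13 for Rpl5 and -0.21 for Rpl24.

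Members relatively higher in BLA were Rpl3, Rps24, Rps12 and Rpl31. Rpl3, a large subunit protein that reaches towards the peptidyl transferase centre, had relative levels of -0.12, 0.01 and 0.13 in BLA and -0.48, -0.30 and -0.05 in motor cortex. The areas overlapped through 1 motor cortex array, and Rpl3 was relatively higher in BLA by 0.31 ± 0.039 (limma adjusted p = 6.66e-09).
Rps12, of the small subunit, had relative levels of -1.04, -0.92 and -0.81 in BLA and -1.28, -1.24 and -1.05 in motor cortex. All BLA arrays were higher than all motor cortex arrays, by 0.29 ± 0.036 on average (limma adjusted p = 8.75e-09), and all 4 probe sets of Rps12 were higher in BLA as deposited, by 0.24 to 0.51.
Rpl31, a large subunit protein on the surface around the exit of the nascent chain, had relative levels of 0.79, 0.85 and 0.98 in BLA and 0.51, 0.61 and 0.75 in motor cortex. The areas did not overlap, with a relative difference of 0.25 ± 0.031 (limma adjusted p = 5.15e-09), and as deposited all 7 probe sets were above 0, from 0.04 to 0.49; with the mean of its probe sets the relative difference was 0.13. Rps24, of the small subunit, was relatively higher in BLA by 0.30 ± 0.041 (limma adjusted p = 6.56e-08), and both of its probe sets were higher as deposited, by 0.52 and 0.55. With quantile-normalized values its relative difference was 0.13.
Most of these 8 members also differed between BLA and the hippocampal fields, though not all in both. Relative to the members' median, Rpl3 differed by -0.38 ± 0.039 and Rpl31 by -0.26 ± 0.031 for CA1 minus BLA, and Rps6 by 0.26 ± 0.039 and Rps3a by 0.25 ± 0.037. Rps24 did not pass for CA1 minus BLA (-0.05, limma adjusted p = 0.264), nor did Rpl5 (0.07, limma adjusted p = 0.0753) and Rpl24 (0.06, limma adjusted p = 0.209) for CA3 minus BLA. Rps6, Rpl5 and Rpl24 were also relatively lower in CA3 than in motor cortex, by differences of -0.31, -0.31 and -0.28. These comparisons share the BLA arrays with the one against motor cortex.

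**Figure D3:**
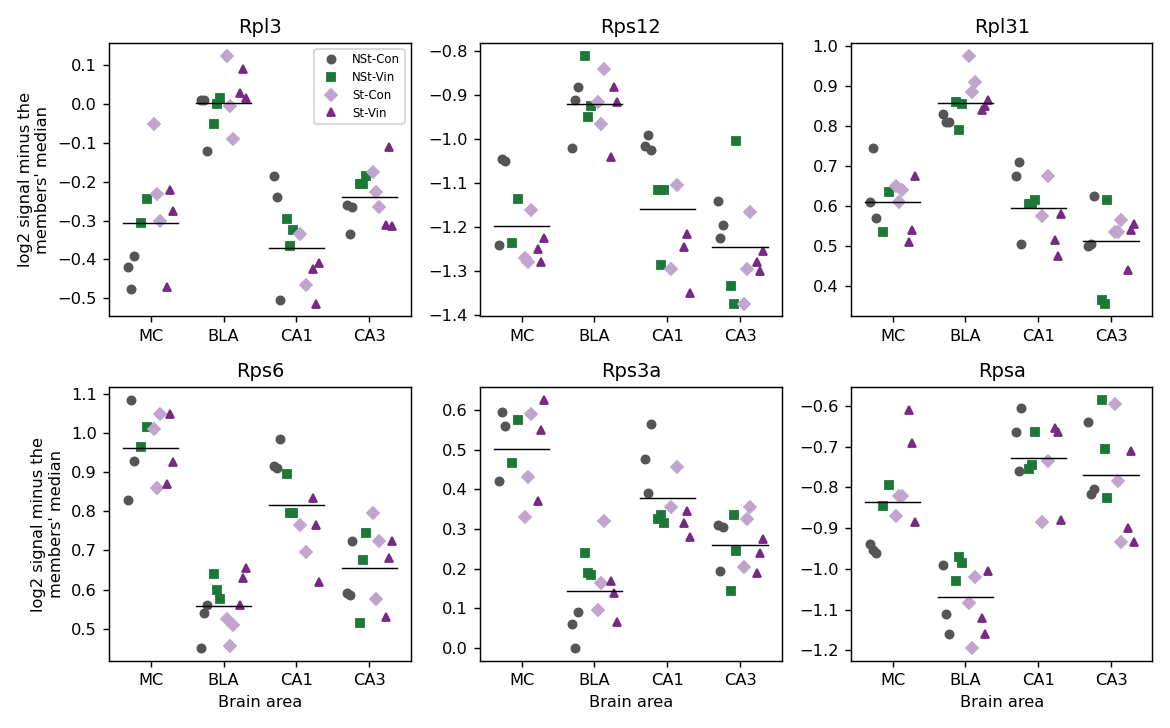
Relative level (log2 signal minus the array's members' median, vertical axis) of 6 members by brain area, with one point per array, colours for the 4 groups and a line at the area mean. Rps6 lies between 0.45 and 0.66 in BLA and between 0.83 and 1.09 in motor cortex, and Rpl31 between 0.79 and 0.98 in BLA and between 0.51 and 0.75 in motor cortex.

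BLA and motor cortex could be compared within one scan day, over fewer motor cortex arrays. These were the 3 NSt-Con arrays and the first NSt-Vin array, so that no stressed pool had both areas on that day. There 5 members were relatively higher and 12 relatively lower (24.3% of the members), where 47.5% of all probe sets passed, and of the 53 members called over all arrays 5 of 19 and 11 of 34 were called again in the same direction and 0 in the opposite one. Rps6 (-0.43 to -0.36 over this scan day and the 3 other alternatives to this centring), Rps3a (-0.41 to -0.33), Rpl3 (0.29 to 0.36) and Rps12 (0.20 to 0.27) kept their direction and their call. Over all the alternatives except that scan day, 9 of the 19 higher members (Rpl27a, Rpl3, Rpl31, Rpl39, Rplp0, Rps12, Rps16, Rps24 and Rps25) and 19 of the 34 lower ones stayed called. With the mean of all probe sets of a symbol in place of one, 2 members were called in the opposite direction.

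The acidic stalk proteins, which recruit the elongation factors to the large subunit, did not keep one ratio to the family. Rplp0, the base of the stalk, had the largest range over the area means as deposited (0.95). Its log2 signal was 9.30, 9.57 and 9.72 in motor cortex, 9.83, 10.02 and 10.13 in BLA, 10.07, 10.23 and 10.37 in CA1 and 10.35, 10.49 and 10.70 in CA3, so that motor cortex overlapped no other area. Relative to the members' median it was higher than in motor cortex by 0.21 ± 0.033 in BLA, 0.22 ± 0.034 in CA1 and 0.29 ± 0.033 in CA3 (limma adjusted p = 8.67e-07, 5.79e-07 and 4.75e-10).
Rplp1 was relatively lower in CA3 than in motor cortex (-0.13 ± 0.032, limma adjusted p = 0.000329) and than in BLA (-0.21 ± 0.031, limma adjusted p = 2.03e-07). Rplp2, its partner in the stalk dimers, was relatively lower than in motor cortex in BLA (-0.22 ± 0.039, limma adjusted p = 5.28e-06) and in CA1 (-0.19 ± 0.041, limma adjusted p = 9.75e-05). For CA3 minus motor cortex Rplp2 differed by -0.08 ± 0.039, short of the threshold (limma adjusted p = 0.0670). Leaving aside the single scan day, neither of the Rplp1 calls was kept in all the alternatives of this centring. The calls of Rplp0 and Rplp2 against motor cortex were kept.

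Rpsa, a small subunit protein also known as a laminin receptor, was relatively lowest in BLA, with -1.20, -1.06 and -0.97 against -0.96, -0.85 and -0.61 in motor cortex. The ranges did not overlap, and the relative difference was -0.24 ± 0.045 (limma adjusted p = 1.39e-05). For CA1 minus BLA it was 0.34 ± 0.045 (limma adjusted p = 3.19e-08), with 0.16 to 0.35 over the other treatments of this centring, and the call was kept. For CA3 minus BLA the relative difference was 0.30 ± 0.044 (limma adjusted p = 1.51e-07). It was as low as 0.06 over those treatments, and that call was not kept.
Rps4x and Rps4y2 are 2 copies of the small subunit protein eS4. Rps4x, on the X chromosome, had small relative differences in all pairs, from -0.09 to 0.04. It was called relatively lower than in motor cortex in CA3 (-0.09 ± 0.028, limma adjusted p = 0.00282) and in BLA (-0.07 ± 0.028, limma adjusted p = 0.0272). Neither call was kept in all the alternatives of this centring. Rps4y2, which RefSeq places on chromosome 4 in the rat, had log2 signals of 6.51, 6.58 and 6.68 in CA3 and 6.10, 6.16 and 6.25 in CA1. These did not overlap, and it was relatively higher in CA3 than in CA1 by 0.20 ± 0.040 (limma adjusted p = 5.05e-05), the only member called relatively higher for that pair in all the alternatives of this centring. Its means, from 5.75 in motor cortex to 6.58 in CA3, lie below the median of all probe sets in every area, and the filter on low signals, at the 30th percentile, leaves it out.
Among the other members that led a pair, Rpl22 and Rpl23, both of the large subunit, were relatively higher in CA3 than in motor cortex by 0.17 ± 0.031 and 0.23 ± 0.043. Rps19bp1 had the smallest range over the area means as deposited (0.12), with means of 5.78 in motor cortex, 5.80 in BLA, 5.90 in CA1 and 5.87 in CA3. Relative to the rising family it was therefore lower in CA3 than in motor cortex by -0.57 ± 0.038 (limma adjusted p = 6.91e-16). Its mean lies below the median of all probe sets in every area. Across the 70 members, which share the arrays, the deposited difference of CA3 minus motor cortex correlated with the mean signal at r = -0.27 (Spearman -0.45). That of CA1 minus BLA did so at r = 0.15 (Spearman 0.17). Without Rps19bp1 the 2 values of r were -0.53 and 0.12. In the other pairs they were then -0.51 for CA3 minus CA1, -0.26 for CA1 minus motor cortex, -0.25 for BLA minus motor cortex and -0.20 for CA3 minus BLA. Members with low signals thus tended to have higher differences in every pair except CA1 minus BLA, most in CA3 minus motor cortex and CA3 minus CA1.
The start sequences were set beside these calls. For BLA against motor cortex, 13 of the 17 higher members with a window had the pyrimidine run, 19 of the 30 lower ones and 10 of the 13 not called. For CA1 against BLA these were 10 of 17, 11 of 16 and 21 of 27, and over all members 42 of 60 (70.0%). The higher members thus did not have the larger share in both pairs. A link between the run and the direction was not tested.

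The second comparison asked whether lineage or stress changed the family within an area. Of the 70 members, 0 passed in each of 20 comparisons, 5 in each area: Vin minus Con without and with stress, St minus NSt in each lineage, and the interaction (limma, Benjamini-Hochberg over all probe sets). The background was as low, with 0% of all probe sets called in 18 of the 20, 0.636% (174 probe sets) in motor cortex for St minus NSt in Con and 0.505% (138) in CA1 for St minus NSt in Vin. The 5 comparisons on the mean of the 4 areas, over the 10 pools measured in all of them, also called 0 members and 0% of all probe sets. At an unadjusted p under 0.05, 12 members (17.1%) stood in motor cortex for St minus NSt in Con, where 18.3% of all probe sets did. The members numbered 6 (8.57%) in CA1 and 5 (7.14%) in CA3 for St minus NSt in Vin, against 19.3% and 14% of all probe sets. In motor cortex 8 (11.4%) stood for Vin minus Con without stress and 7 (10%) for the interaction, against 5.68% and 5.61% of all probe sets, and each of the other within-area comparisons had 0 to 4.

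**Figure D4:**
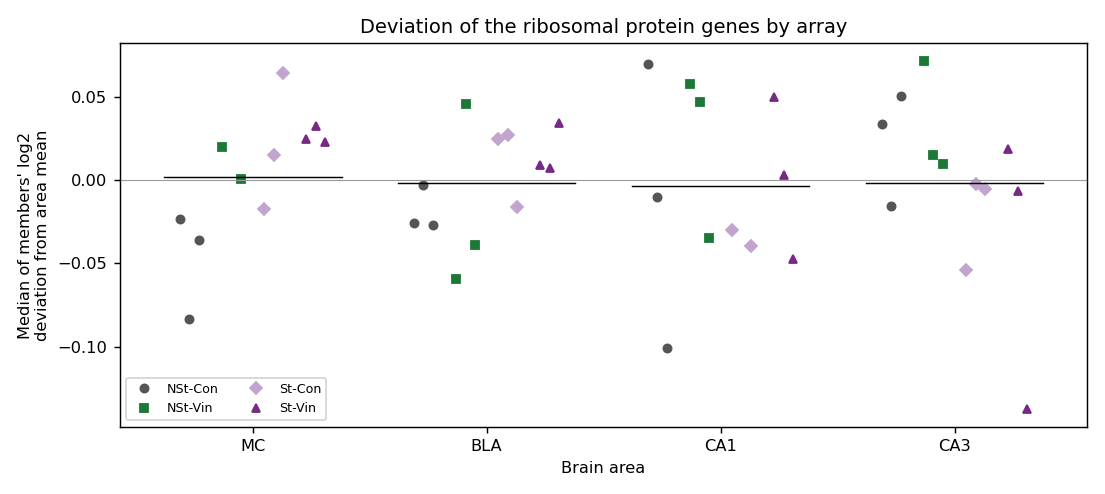
Median over the 70 members of the log2 deviation from the area mean (vertical axis) for each array, by brain area, with colours for the 4 groups. The third St-Vin array of CA3 lies lowest at -0.14, and the highest array, the first NSt-Vin array of CA3, at 0.07.

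The family as a whole differed little between groups. The members' median log2 difference in motor cortex was 0.06 for St minus NSt in Con, with 54 of 70 above 0, and 0.06 for Vin minus Con without stress, with 55 above 0; the median of all probe sets was -0.01 and 0.00. In BLA it was 0.03 and 0.04 for St minus NSt in Con and in Vin, with 53 and 57 above 0, where 45.7% and 51.4% of all probe sets were above 0. In CA1 the members' median was 0.04 for Vin minus Con both without and with stress, and that of all probe sets was 0.01 and 0.00. Without the choroid-rich arrays, which leaves 1 NSt-Con array, the members' median without stress was -0.05. The St-Con arrays used in CA1 were scanned on day 3 and the St-Vin arrays on day 4. In CA1, Vin minus Con with stress and the interaction therefore cannot be told apart from the scan day. In CA3 the members' median was -0.05 and -0.08 for St minus NSt in Con and in Vin, with 18 and 7 of 70 above 0. The median of all probe sets was 0.00 and -0.01 there. Several of these medians rested on single arrays: the motor cortex value for St minus NSt in Con was 0.04 without the third St-Con array, and the BLA values were 0.02 in Con without the first St-Con array and 0.02 to 0.07 in Vin when an NSt-Vin array was left out. The CA3 value in Con was -0.02 without the first St-Con array and -0.03 without the third NSt-Con array. The standard deviation of the array medians between replicates was 0.05 in BLA, motor cortex and CA1 and 0.07 in CA3.
In CA3 the third St-Vin array stood lowest, with 1 of 70 members above the area mean and a median deviation of -0.14. Its 95th percentile over all probe sets deviated from the area's mean by -0.13, and the mean of the oxidative phosphorylation genes by -0.11. Their part in the low value was not tested. Without this array the CA3 median for St minus NSt in Vin was -0.03 in place of -0.08, and quantile normalization turned it to 0.015. The same pool's arrays in BLA, motor cortex and CA1 had 51, 46 and 16 members above their area means. The third NSt-Con array of CA1, which holds much choroid plexus signal, had a median deviation of -0.10, with 14 members above the mean.

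The members nearest to the threshold were in motor cortex. Rpl3 had log2 signals of 9.62, 9.41 and 9.62 in NSt-Con, 9.78 and 9.78 in NSt-Vin, 9.99, 9.88 and 9.82 in St-Con and 9.68, 9.87 and 9.85 in St-Vin. Every St-Con array was above every NSt-Con array, and the difference in Con was 0.35 ± 0.075 (limma adjusted p = 0.0531).
Rps9, a small subunit protein near the site where the message enters, had 9.43, 9.47 and 9.49 in NSt-Con, 9.78 and 9.61 in NSt-Vin, 9.70, 9.80 and 9.90 in St-Con and 9.77, 9.91 and 9.69 in St-Vin. Its NSt-Con arrays were the lowest of all, and the difference in Con was 0.34 ± 0.073 (limma adjusted p = 0.0531).
Rpl36, a large subunit protein, had 8.44, 8.43 and 8.68 in NSt-Con and 8.86 and 8.93 in NSt-Vin, a difference of 0.38 ± 0.087 for Vin minus Con without stress (limma adjusted p = 0.729; unadjusted p = 0.000969). All 10 probe sets of Rpl36 had the same sign in that comparison, from 0.24 to 0.45.
In each of the 3 genes the NSt-Con group was the lowest. All NSt-Con arrays of motor cortex were scanned on day 1 and all St arrays on day 2; with scan day as a block, which rests on the 2 NSt-Vin arrays, Rpl3 differed by 0.35 and Rps9 by 0.51 (limma adjusted p = 0.669 and 0.624). The first NSt-Con array also held choroid plexus signal; without it Rpl3 differed by 0.38 and Rps9 by 0.32 (limma adjusted p = 0.0855 and 0.111).

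**Figure D5:**
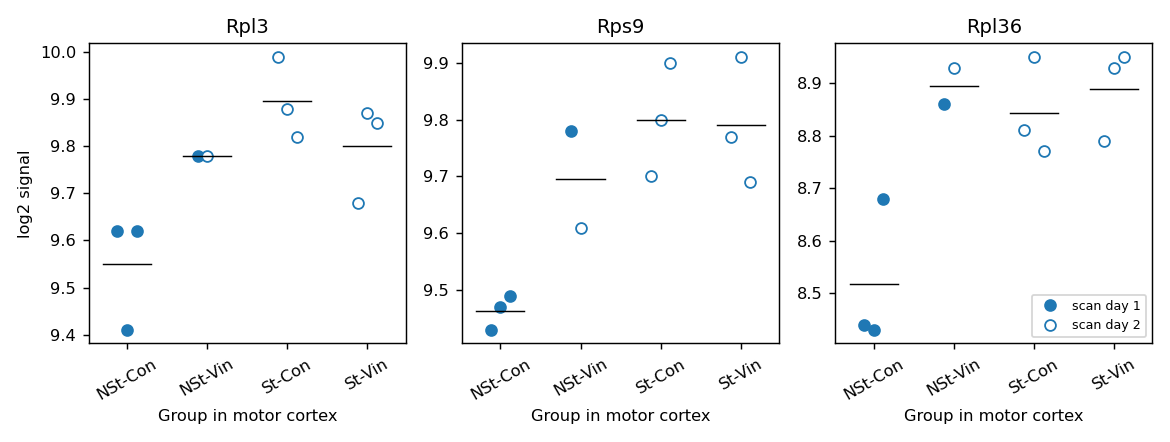
Log2 signal (vertical axis) of Rpl3, Rps9 and Rpl36 in motor cortex by group, with one point per array, filled for scan day 1 and open for scan day 2, and a line at the group mean. The NSt-Con arrays, all of scan day 1, lie lowest, from 9.41 to 9.62 for Rpl3 and 9.43 to 9.49 for Rps9.

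In the other areas the members with the smallest p did not pass either. Rplp2 in CA1 had 10.57, 10.61 and 10.59 in NSt-Vin and 10.92, 10.81 and 10.69 in St-Vin. The groups did not overlap, with a difference of 0.22 ± 0.065 (limma adjusted p = 0.131), and the NSt-Vin arrays were all scanned on day 3 and the St-Vin arrays on day 4, so that here the scan day and stress cannot be told apart.
Rps15 in CA3, a small subunit protein near the decoding site, had 8.93, 8.79 and 8.83 in NSt-Vin and 8.72, 8.69 and 8.46 in St-Vin, a difference of -0.23 ± 0.069 (limma adjusted p = 0.249). It was -0.15 without the third St-Vin array (limma adjusted p = 0.562) and -0.14 with quantile normalization. Rpl24 in BLA had 8.51, 8.46 and 8.60 in St-Con and 8.33, 8.27 and 8.33 in St-Vin, a difference of -0.21 ± 0.059 for Vin minus Con (limma adjusted p = 1.0), and -0.07 with the mean of its probe sets. These groups did not overlap, and neither difference was past the threshold. On the mean of the 4 areas, the smallest unadjusted p for Vin minus Con without stress was that of Rpl36 (0.13 ± 0.038, limma adjusted p = 0.999), and for St minus NSt in Vin that of Rpl30 (0.11 ± 0.036, limma adjusted p = 0.771).
The other lists of translation genes gave 1 call in the 20 comparisons, Mrpl1, of the large subunit of the mitochondrial ribosome, which was lower in motor cortex for St minus NSt in Con.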

How the data were processed

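Gene expression was measured on 48 one-colour Affymetrix whole-transcript arrays. The authors deposited log2 values; per the submitters' processing notes they used RMA in Partek. Versions, and whether areas were normalized together, are not given in the sources used here. The number of arrays limits the precision. Of the 27342 probe sets, 15097 have 1 annotated symbol, 323 several and 11922 none.

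Of the arrays, 2 equal the mean of the other 2 of their group within 0.0051 on every probe set and were left out. Areas were compared with limma 3.58.1 (R 4.3.3; lmFit, eBayes) with the pool as a block, and groups within an area by group means; p-values were adjusted by Benjamini-Hochberg over all probe sets, threshold 0.05. The fits were tested on simulated data. Replicate numbers pair samples, since the labels say that cage mates supply same-numbered Vin and Con pools: same-dyad deviations correlated above 0.1 in 6 of 6, 3 of 5, 5 of 5 and 5 of 6 pairs in BLA, motor cortex, CA1 and CA3.

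The members, lists and tests were chosen with earlier results of these data known. Named members were, per area pair, the 4 highest and 4 lowest differences past the threshold and, per lineage or stress comparison, those past it or the 2 smallest p-values, besides the stalk proteins, Rpsa, the Rps4 copies and the extremes of the range over area means. Rpl11, Rpl36 and further members were named after their values were seen. Rps27a is not analysed here. Choroid-rich arrays are those over 0.6 above the area's mean of the list. Alternatives were other scalings, a filter at the 30th percentile of mean signal, all 48 arrays, trend and robust options, other treatments of pool, dyad, scan day and probe sets, and leaving out each replicate.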

Additional observations from a re-analysis of the deposited data

How the results depend on the processing

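The areas' scale changed most. With quantile normalization, members called fell to 24 for CA3 minus CA1 and 45 for CA3 minus BLA, and the members' medians moved to -0.045 for CA3 minus CA1, 0.14 for CA1 minus motor cortex, 0.12 for CA3 minus motor cortex, -0.0077 for CA1 minus BLA and -0.023 for CA3 minus BLA; in CA3, St minus NSt in Vin moved to 0.015 and the interaction to 0.0501. With arrays centred on their median, called members numbered 37 for CA3 minus CA1, 30 for CA1 minus motor cortex and 40 for CA3 minus motor cortex, and the medians moved to -0.16 for BLA minus motor cortex (-0.15 within scan day 1, added after the data were seen), -0.058, 0.036 and -0.031 for the 3 pairs just named and, for CA3 minus BLA, 0.14. Centred on the members' median, likewise added, 37, 28, 38 and 46 members were called for CA3 minus CA1, CA1 minus motor cortex, CA1 minus BLA and CA3 minus BLA.

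Named members past the threshold as deposited changed sign with quantile normalization (for CA3 minus CA1 Rpl21 -0.073, Rpl8 -0.13, Rpl27 -0.15, Rpl11 -0.12, for CA1 minus motor cortex Rps19bp1 -0.23, Rpl13a -0.0034, Rplp2 -0.0042, Rps29 -0.021, for CA3 minus motor cortex Rps19bp1 -0.39, Rps6 -0.060, Rpl5 -0.063, Rpl24 -0.19, for CA1 minus BLA Rps2 -0.18, Rpl27 -0.18, Rplp1 -0.067, for CA3 minus BLA Rps19bp1 -0.15, Rpl31 -0.35, Rps12 -0.38, Rpl27 -0.32) and with arrays centred on their median (for CA3 minus CA1 Rpl21 -0.17, Rpl8 -0.15, Rpl27 -0.15, Rpl11 -0.14, for CA1 minus motor cortex Rps19bp1 -0.24, Rpl13a -0.13, Rplp2 -0.11, Rps29 -0.11, for CA3 minus motor cortex Rps19bp1 -0.50, Rps6 -0.24, Rpl5 -0.24, Rpl24 -0.21, for CA3 minus BLA Rps19bp1 -0.19, Rpl31 -0.18, Rps12 -0.16, Rpl27 -0.10). With the mean of all probe sets of a symbol, Rpl5 for BLA minus motor cortex turned to 0.065 and the relative Rpl36 for CA3 minus BLA to -0.066.

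In motor cortex, St minus NSt in Con, 0 members called became 4 with all 48 arrays, 2 with trend and robust options, 1 with quantile normalization, 1 with the mean of probe sets, 1 centred on the members' median, and 0 to 1 when each replicate was left out (1 without St-Vin replicate 3). Without choroid-rich arrays the CA1 medians moved to -0.047 (Vin minus Con, NSt), -0.10 (St minus NSt, Con) and 0.079 (interaction). With the replicate block (dyad) the count of members called was 0 in every lineage comparison and interaction; Rpl36 for Vin minus Con, NSt, in motor cortex was then 0.34. The block changed no call. Every other alternative listed under the methods left the members' median within 1 SD between replicates and the count within 1.5 times.

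Precision is set by 2 or 3 pools a group, and a comparison that missed the threshold does not show that the groups were alike. The area pairs rest on days of RNA preparation and scanning that differ between areas.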
